A study of Mus musculus with 12 samples.

Results

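The transcription factors that build and maintain effector CD8 T cells were followed here through their mRNA in mouse cytotoxic T lymphocytes (CTL). The members were chosen by name as the rows of the expression table with the symbols Tbx21, Eomes, Id2, Prdm1, Zeb2, Zfp683, Irf4 and Runx3, and all 8 were present among 13283 genes. CTL were grown from lymph node or spleen T cells of female mice aged 11 to 27 weeks, by triggering CD3 and CD28 for 48 h and expanding the cells with the cytokines IL-12, at 2 ng/ml, and IL-2, at 20 ng/ml. Every mouse carried a Cre recombinase driven by the granzyme B promoter, which is switched on as CD8 T cells become effectors. WT CTL had Cre and intact FOXO1. FOXO1-GFP KO CTL had Cre and a floxed Foxo1 allele fused to GFP, and cells that had lost GFP were sorted; live CD8-positive cells were sorted in both genotypes. Each genotype was cultured for 24 h with vehicle (DMSO) or with 10 µM of IC87114 (PI3Kdi), which blocks the p110δ catalytic isoform of PI3K. The resulting 4 groups were WT, WT+PI3Kdi, FOXO1-GFP KO and FOXO1-GFP KO+PI3Kdi, with 3 libraries each and 12 in all.

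These factors divide the work of effector differentiation. T-bet (Tbx21) and Eomesodermin (Eomes) are related T-box proteins that switch on cytolytic and cytokine genes, and Runx3 establishes the CD8 lineage and opens effector genes. Id2 holds E proteins in check, IRF4 relays the strength of antigen receptor signalling, and Blimp-1 (Prdm1), Hobit (Zfp683) and ZEB2 (Zeb2) are repressors that silence genes of naive and memory precursor cells. PI3K activity leads to AKT-dependent export of FOXO1 from the nucleus, so FOXO1 is a textbook route from PI3K to transcription in T cells.

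Libraries held 12.9 to 48.0 M effective reads (M, 1e6), estimated from the spacing of the lowest values. Foxo1 mRNA was 5.77 to 10.46 FPKM in the 6 libraries with intact FOXO1 and 0.58 to 1.75 FPKM in the 6 FOXO1-GFP KO libraries, a log2 fold change of -2.71 ± 0.39 (SE) without PI3Kdi and -2.76 ± 0.39 with it (limma, adjusted p = 0.0148 and 0.00478). The defining CD8 T cell mRNA Cd8a (139 to 253 FPKM) and Cd8b1 (224 to 399 FPKM) were abundant. The defining B cell (Ms4a1), myeloid (Csf1r, Adgre1) and NK cell (Ncr1) genes were not among the rows of the table, but other genes of these lists were. Of 8 myeloid genes 5 were listed, with a summed level of 17 to 29.1 FPKM, most of it Cd68 (14.5 to 26.9 FPKM), and of 5 NK cell genes 2 were listed, Klrb1c and Klre1, with a summed level of 2.17 to 5.66 FPKM. Low Ighm (1.64 to 13 FPKM) was present, and the summed level of the 6 B cell and plasma cell genes listed was 19.7 to 27.1 FPKM in WT libraries and 8.69 to 11.8 FPKM in FOXO1-GFP KO libraries. Among them Ighm, Igkc and Jchain were higher in every WT library than in any FOXO1-GFP KO library, while Cd74, Cd79b and H2-Ab1 overlapped. The study listed Jchain among its FOXO1-dependent mRNA in these sorted CTL.

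Deletion of FOXO1 and inhibition of p110δ are the variables of the experiment, so the promoters of the factors were searched for the core FOXO letters. RefSeq promoters (GRCm38.p6) were found for 7 of the 8 members, in 11 windows, and the 250 bases before each start were read on both strands. Zfp683 had no promoter entry, so it was not searched for any of the letters below. GTAAACA, or its reverse complement TGTTTAC, lay in 3.17% of all 32851 promoters and in a window of 1 member, Prdm1. That window was chr10:44458749-44458998 on the minus strand. It is shown with the match in capitals, because Prdm1 is the one factor whose window holds these letters:
Prdm1: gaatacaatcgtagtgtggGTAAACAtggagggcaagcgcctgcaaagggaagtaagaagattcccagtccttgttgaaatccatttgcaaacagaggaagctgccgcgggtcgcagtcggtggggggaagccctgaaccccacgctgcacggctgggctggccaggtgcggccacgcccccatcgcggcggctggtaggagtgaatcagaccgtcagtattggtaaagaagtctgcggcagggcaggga
The match began 231 bases before the start. The RUNX letters AACCACA (reverse complement TGTGGTT), present in 4.4% of all promoters, occurred at 135 and 127 bases before the start in a window of Runx3 and in no window of the other members. The T-box letters AGGTGTGA (reverse complement TCACACCT), in 1.12% of all promoters, were in none of the members' windows. Matches describe the letters of these windows only.

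The members spanned the whole range of the transcriptome. Id2 mRNA was the most abundant, at 257.59 to 388.89 FPKM over the 12 libraries, above 98.7 to 99% of genes in its library. Eomes followed at 81.82 to 111.53 FPKM, then Runx3 at 26.06 to 48.02 FPKM. Tbx21 lay at 9.19 to 18.43 FPKM, Irf4 at 7.49 to 19.66 FPKM and Zfp683 at 2.25 to 14.19 FPKM, ranges that overlapped. Prdm1 was low, at 1.41 to 3.97 FPKM, above 27 to 45.6% of genes. Zeb2 was barely detected, at 0.01 to 0.12 FPKM, or 3.52 to 60.1 reads by the estimated depth, and no more than 3.7% of genes of a library lay below it. FPKM is scaled by the total exon length of a gene (1471 bp for Zfp683 and 19942 bp for Zeb2). How much of it the transcripts use was not measured, so levels of different genes compare only roughly.

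**Figure D1:**
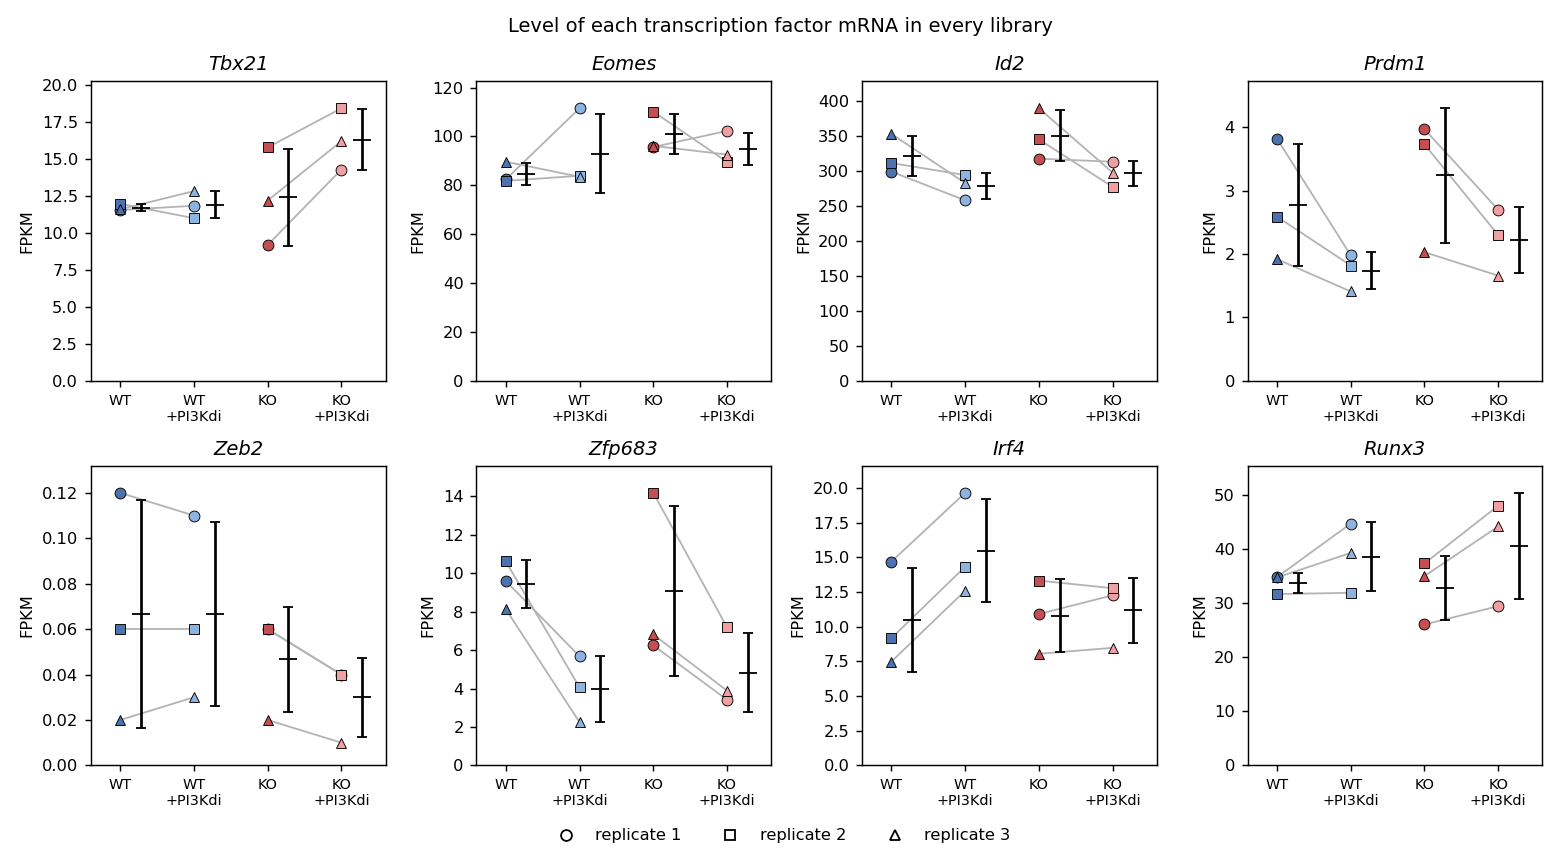
Level of each of the 8 mRNA in FPKM (vertical axes, starting at 0) in every library of the 4 groups (KO, FOXO1-GFP KO), with symbols for replicate numbers, grey lines joining the vehicle and PI3Kdi libraries of one number, and bars for the mean ± SD of 3 libraries. All 6 lines fall for Zfp683, Prdm1 and Id2 and rise for Runx3, and the Irf4 lines rise in WT (7.49 to 14.70 FPKM without and 12.6 to 19.66 FPKM with PI3Kdi). The share of all genes whose lines go one way was not counted.

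The first question was what sustained loss of p110δ activity did to these mRNA in CTL with intact FOXO1. Zfp683, encoding Hobit, was the member with the largest difference on the log2 scale: its mean was 9.45 ± 1.25 FPKM (SD, n = 3) in WT and 4 ± 1.72 FPKM in WT+PI3Kdi. Prdm1, encoding the related repressor Blimp-1, was 2.78 ± 0.964 FPKM and 1.74 ± 0.294 FPKM in the same groups. Irf4 differed the other way, at 10.5 ± 3.77 FPKM and 15.5 ± 3.68 FPKM. The first fit, of 4 group means, had no replicate block (limma). In it 0 of the 8 members passed an adjusted p under 0.05 and a fold change over 1.5, against 0.0979% of all genes. An unadjusted p under 0.05 was found for 1 member, Zfp683, and for 5.14% of all genes. Voom on estimated reads without the block also called 0 members. Replicate numbers were taken to pair the vehicle and PI3Kdi libraries of a genotype. The labels do not state this, and it was inferred from correlations in these data. When each pair was a block, 3 members were called against 2.57% of all genes: Zfp683 and Prdm1 fell and Irf4 rose. Voom with this block called the same 3. In limma with the block, 4 members had an unadjusted p under 0.05, against 23.7% of all genes.

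Zfp683 lies at chr4:134053838-134058996 on the plus strand (GRCm38, GENCODE M21, as for the positions that follow), and like the other members it is a protein-coding gene whose reads were scaled by the total length of its exons. It was listed at 9.60, 10.62 and 8.13 FPKM in the WT libraries and at 5.68, 4.06 and 2.25 FPKM in the WT+PI3Kdi libraries. Each WT+PI3Kdi library was below each WT library, and the lowest of them rested on 51 estimated reads. The log2 fold change was -1.31 (95% interval -1.71 to -0.90 with the block, adjusted p = 0.00143; -2.15 to -0.46 without it, adjusted p = 0.408). With the block, this call held when any 1 of the 12 libraries was left out, with an adjusted p of at most 0.0144. It did not hold when the block was shared across genotypes (adjusted p = 0.081). The 3 pairs differed by -0.75, -1.37 and -1.81 on the log2 scale.

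Prdm1 (chr10:44437177-44528501, minus strand) was 3.82, 2.59 and 1.92 FPKM in WT and 1.98, 1.82 and 1.41 FPKM in WT+PI3Kdi. The groups overlapped, since the lowest WT library lay below the highest WT+PI3Kdi library, whereas the PI3Kdi library was the lower one of all 3 pairs. The log2 fold change was -0.61 (95% interval -0.91 to -0.30, adjusted p = 0.0227 with the block; adjusted p = 1 without it), just past the threshold of 0.585. The call was lost without WT replicate 1 or 2 (adjusted p = 0.143 and 0.0654), and without WT+PI3Kdi replicate 1, 2 or 3 (adjusted p = 0.122, 0.0574 and 0.0652).

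Irf4 (chr13:30749226-30766976, plus strand) was 14.70, 9.18 and 7.49 FPKM in WT and 19.66, 14.33 and 12.60 FPKM in WT+PI3Kdi. The groups overlapped again, because WT replicate 1 lay above the middle treated library, but the treated library was higher in all 3 pairs. The log2 fold change was 0.60 (95% interval 0.35 to 0.84, adjusted p = 0.0078 with the block; adjusted p = 0.96 without it), a 1.51-fold difference at the edge of the threshold. The pairs differed by 0.42, 0.64 and 0.74. The log2 fold change was 0.57 without WT replicate 2, 0.50 without WT replicate 3 and 0.57 without WT+PI3Kdi replicate 3. In these fits Irf4 was not called. Plasma cells also express Irf4 and Prdm1. The summed level of the 6 B cell and plasma cell genes was 19.7 to 23.9 FPKM in WT and 20.7 to 27.1 FPKM in WT+PI3Kdi. Within this list the ranges in WT and WT+PI3Kdi were 7.61 to 10.3 and 11.1 to 13 FPKM for Ighm, 0.3 to 1.68 and 1.38 to 2.84 FPKM for Igkc, and 0.4 to 0.55 and 0.54 to 1.28 FPKM for Jchain. They were 4.52 to 6.48 and 3.09 to 5.09 FPKM for H2-Ab1, 1.36 to 2.32 and 1.21 to 1.53 FPKM for Cd74, and 3 to 4.29 and 2.86 to 4.49 FPKM for Cd79b, so the list did not move one way, and its part in these results was not tested. In bulk RNA, fewer cells of a type and less RNA per cell cannot be told apart.

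The other 5 members were not called in WT by either fit. Id2 (chr12:25093799-25097140, minus strand) was 298.49, 310.74 and 352.30 FPKM in WT and 257.59, 293.55 and 282.26 FPKM in WT+PI3Kdi, so the groups did not overlap, yet the log2 fold change was only -0.20 (95% interval -0.36 to -0.05 with the block, adjusted p = 0.104). Id2 and Zfp683 were the 2 members whose libraries did not overlap between these groups, in a comparison where 10.2% of all genes did not. With the block, Runx3 (chr4:135120652-135177990, plus strand) had a log2 fold change of 0.18 (-0.01 to 0.37) and Eomes of 0.12 (-0.07 to 0.32). Tbx21 was 11.55, 11.97 and 11.60 FPKM in WT and 11.84, 11 and 12.83 FPKM in WT+PI3Kdi, with a log2 fold change of 0.02 (-0.17 to 0.21). Zeb2 (chr2:44983632-45117395, minus strand) was 0.12, 0.06 and 0.02 FPKM in WT and 0.11, 0.06 and 0.03 FPKM in WT+PI3Kdi, and a change was not detectable at this depth.

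The same inhibitor was given to CTL that lacked FOXO1, to ask which responses occur without it. Zfp683 had a mean of 9.09 ± 4.43 FPKM in the vehicle group and 4.83 ± 2.05 FPKM in the group given PI3Kdi. Tbx21 was 12.4 ± 3.3 and 16.3 ± 2.07 FPKM, and Prdm1 was 3.24 ± 1.06 and 2.22 ± 0.525 FPKM. Without the block 0 of 8 members were called (limma, 0.0452% of all genes). Tbx21 and Zfp683, 2 members, had an unadjusted p under 0.05, as did 5.17% of all genes. Voom without the block also called 0. With the block 1 member was called, Zfp683, against 2.79% of all genes, and Tbx21 and Prdm1 passed the adjusted p but not the fold. In that fit 5 members had an unadjusted p under 0.05, against 29.5% of all genes. The share of all genes passing the adjusted p alone was not counted.

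Zfp683 was 6.25, 14.19 and 6.82 FPKM in the FOXO1-GFP KO libraries and 3.42, 7.19 and 3.89 FPKM once PI3Kdi was present. Replicate 2 was the highest library of both groups, and the groups overlapped, but the treated library was the lower one in all 3 pairs, by log2 differences of -0.85, -0.97 and -0.79. Zfp683 fell by 0.87 on the log2 scale (95% interval -1.28 to -0.47, adjusted p = 0.0155 with the block; adjusted p = 0.924 without it). The call was lost without FOXO1-GFP KO replicate 2 (adjusted p = 0.0974) and without FOXO1-GFP KO+PI3Kdi replicate 2 or 3 (adjusted p = 0.0556 and 0.0742).

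Tbx21 (chr11:97098071-97115331, minus strand) was 9.19, 15.78 and 12.19 FPKM in the vehicle libraries of FOXO1-GFP KO and 14.29, 18.43 and 16.21 FPKM in those given PI3Kdi. It was higher with PI3Kdi in all 3 pairs. The log2 difference was 0.42 (95% interval 0.23 to 0.61, adjusted p = 0.0128 with the block), a 1.34-fold difference that did not reach the threshold of 1.5. NK cells also express Tbx21, and the 2 NK cell genes listed summed to 2.89 to 4.28 FPKM in the vehicle libraries and 3.83 to 5.66 FPKM in those given PI3Kdi; their part in this difference was not tested. Prdm1 was 3.97, 3.73 and 2.03 FPKM without and 2.7, 2.3 and 1.66 FPKM with PI3Kdi, lower in all 3 pairs. Its log2 fold change was -0.50 (95% interval -0.80 to -0.19, adjusted p = 0.0444), also within the fold threshold, and it was called only when FOXO1-GFP KO replicate 3 was left out (-0.65, adjusted p = 0.0298).

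Irf4 was 10.92, 13.33 and 8.05 FPKM without and 12.27, 12.78 and 8.48 FPKM with PI3Kdi in these cells, a log2 difference of 0.06 (-0.18 to 0.30). Id2 was 317.01, 344.54 and 388.89 FPKM without and 312.64, 276.76 and 297.11 FPKM with PI3Kdi. It was the 1 member whose libraries did not overlap (10.1% of all genes), and its log2 difference was -0.24 (-0.40 to -0.09, adjusted p = 0.0521 with the block). Runx3 was higher in all 3 pairs, by 0.29 (0.10 to 0.48, adjusted p = 0.054). Eomes differed by -0.09 (-0.28 to 0.11). Zeb2 was listed at 0.06, 0.06 and 0.02 FPKM without and 0.04, 0.04 and 0.01 FPKM with PI3Kdi.

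**Figure D2:**
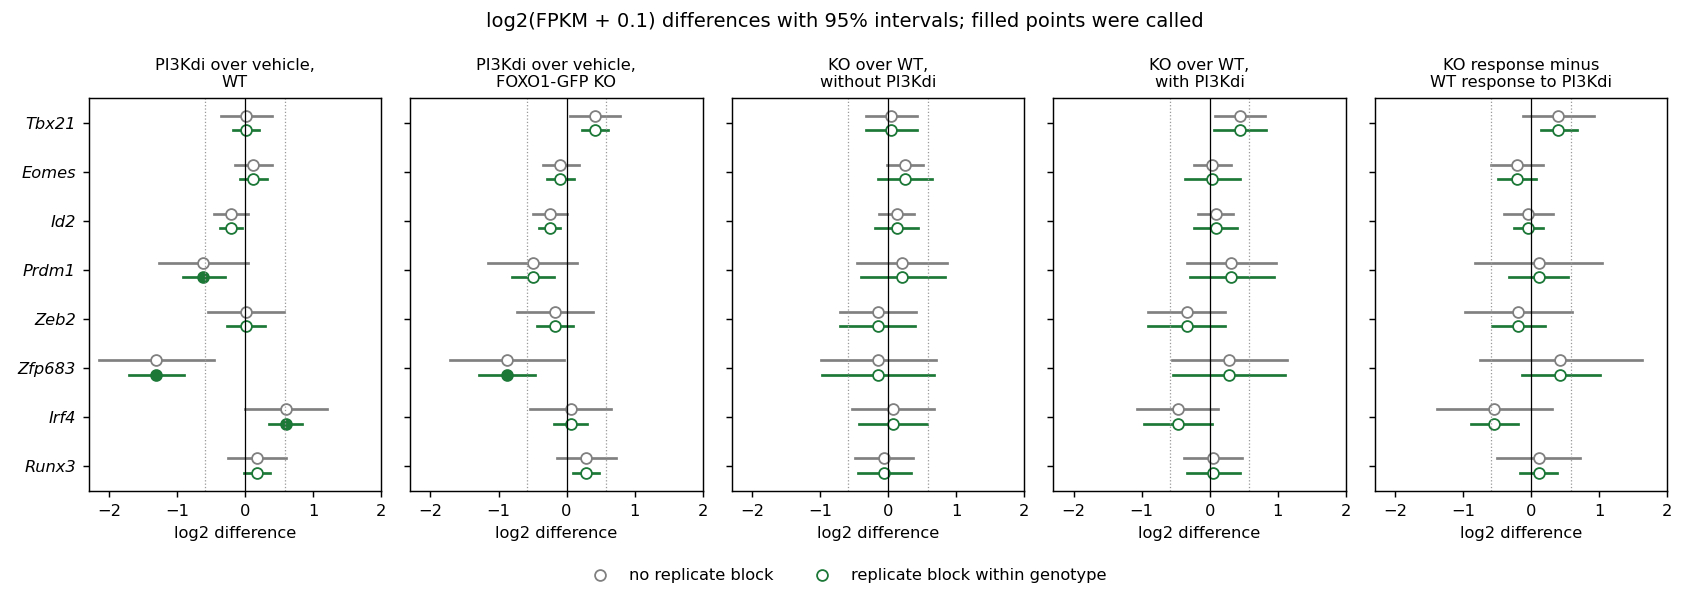
The log2 differences of the 8 members in the 5 comparisons (horizontal axes; KO, FOXO1-GFP KO), with 95% intervals from limma without (grey) and with (green) the replicate block within genotype; filled points passed an adjusted p under 0.05 and a fold change over 1.5, whose bounds are dotted. The filled points are Zfp683, Prdm1 and Irf4 in the WT panel and Zfp683 in the next panel.

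Whether the response to PI3Kdi differed between the genotypes was tested directly, as the response of FOXO1-GFP KO minus that of WT. No member differed past the thresholds. Called were 0 of 8 without the block (limma, 0% of all genes) and 0 of 8 with it (0.0226% of all genes). An unadjusted p under 0.05 was found for 0 members without the block (1.51% of all genes) and 2 with it (10.8% of all genes). For Zfp683 the difference was 0.43 (95% interval -0.14 to 1.01 with the block, adjusted p = 0.589). For Prdm1 it was 0.11 (-0.32 to 0.54). The 2 members with an unadjusted p under 0.05 were Irf4, at -0.54 (-0.88 to -0.19, adjusted p = 0.216), and Tbx21, at 0.40 (0.14 to 0.67, adjusted p = 0.231). The Irf4 call in WT and its absence in FOXO1-GFP KO CTL therefore do not show a difference between the genotypes.

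The effect of FOXO1 deletion itself was compared with and without the inhibitor, and no member was called in either setting. Without PI3Kdi, 0 of 8 members were called between FOXO1-GFP KO and WT (limma, 0.331% of all genes), and 0 with the block (0.233% of all genes). In the fit without the block 0 members had an unadjusted p under 0.05, against 6.51% of all genes. Eomes (chr9:118478212-118486132, plus strand) was 82.45, 81.82 and 89.67 FPKM in WT and 95.68, 110.19 and 96.17 FPKM in the deleted cells. It was the 1 member whose libraries did not overlap (10.3% of all genes), with a log2 difference of 0.25 (95% interval -0.02 to 0.52, adjusted p = 0.841). Prdm1, with the FOXO letters in its promoter window, differed by 0.21 (-0.45 to 0.87), Zfp683 by -0.15 (-0.99 to 0.70) and Irf4 by 0.07 (-0.53 to 0.67). The intervals of these 3, taken without the block, include a 1.5-fold difference.

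With PI3Kdi, 0 of 8 members were called between the genotypes (limma, 1.45% of all genes) and 0 with the block (1.18% of all genes). In both fits 1 of 8 members, Tbx21, had an unadjusted p under 0.05. This was near the share of all genes, 10.2% without the block and 9% with it. Tbx21 was 11.84, 11 and 12.83 FPKM in WT+PI3Kdi and 14.29, 18.43 and 16.21 FPKM in FOXO1-GFP KO+PI3Kdi, without overlap (14.8% of all genes). The log2 difference was 0.45 (95% interval 0.08 to 0.82 without the block, as for the intervals that follow, adjusted p = 0.34). The summed NK cell genes also lay apart in these groups, at 2.6 to 2.96 FPKM in WT+PI3Kdi and 3.83 to 5.66 FPKM in FOXO1-GFP KO+PI3Kdi (Klrb1c, 2.11 to 2.64 and 3.31 to 4.81 FPKM), and their part in the Tbx21 difference was not tested. The ratio of Eomes to Tbx21 in FPKM was 7.23 ± 0.455 for WT and 7.85 ± 1.47 for WT+PI3Kdi (SD, n = 3). It was 8.43 ± 1.78 for FOXO1-GFP KO and 5.91 ± 1.16 once these cells had PI3Kdi. Irf4 differed by -0.47 (-1.07 to 0.13) and Zfp683 by 0.29 (-0.56 to 1.13).

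The order of the 4 group means differed between members. Zfp683 and Prdm1 had both vehicle groups above both PI3Kdi groups. Id2 had the same order as Prdm1, with FOXO1-GFP KO highest and WT+PI3Kdi lowest. Runx3 had both PI3Kdi groups above both vehicle groups, and Irf4 had WT+PI3Kdi highest and WT lowest. Tbx21 and Eomes were lowest in WT, and were highest in the FOXO1-GFP KO+PI3Kdi and the FOXO1-GFP KO libraries respectively. Zeb2 had a mean of 0.0667 FPKM in both WT and WT+PI3Kdi, 0.0467 FPKM in FOXO1-GFP KO and 0.03 FPKM in FOXO1-GFP KO+PI3Kdi. In each of the 8 orders, the libraries of every group overlapped with those of the next.

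The sum of squares of log2(FPKM + 0.1) over the 12 libraries was divided into genotype, inhibitor, their interaction, pairs within genotype and a remainder. The inhibitor took 58.3% for Zfp683, 50.7% for Id2 and 36.8% for Prdm1, where the median gene gave it 6.39%. Pairs took the largest share for Zeb2 (77.4%), Runx3 (70.8%), Irf4 (61.8%), Prdm1 (49.5%) and Tbx21 (39.5%), and 65.1% for the median gene. Shares were not divided by degrees of freedom, of which pairs and the remainder hold more than genotype, inhibitor or interaction. Their sizes therefore do not rank these sources on equal terms. Genotype took at most 23.2%, in Eomes, and 0.23% in Zfp683. Eomes had the largest remainder, 44%.

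**Figure D3:**
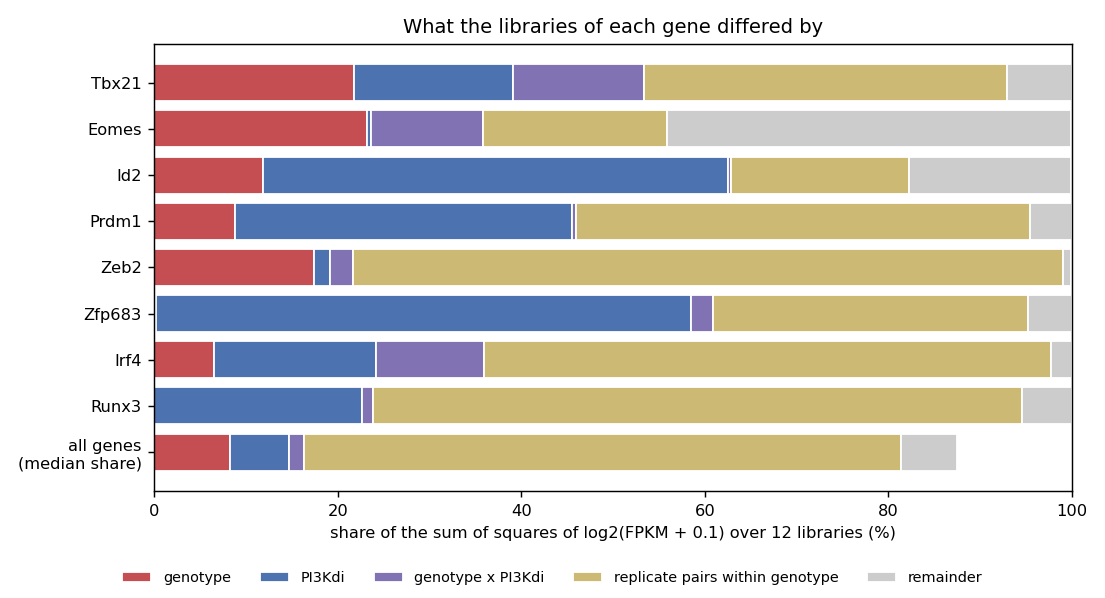
Share of the sum of squares of log2(FPKM + 0.1) over 12 libraries (horizontal axis, %) that each gene gave to genotype, PI3Kdi, their interaction, replicate pairs within genotype and the remainder. Shares are not divided by degrees of freedom. The bottom bar shows the median of each share over the 10371 genes averaging 1 FPKM or more, so its parts do not make up a whole; the PI3Kdi part is widest for Zfp683 (58.3%).

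Genes whose pattern was most like that of each member were found by Pearson correlation over the 12 libraries among 10371 genes. All points share their libraries and their pairs, so these are descriptions. Zfp683 was followed most closely by Sar1a (r = 0.917), Nmt2 and Ints13, and Prdm1 by Ptpn12 (0.945), Acss2 and Riok3. Id2 was most like Ifng (0.911), which encodes interferon gamma, then Eif2b4 and Ufd1. Irf4 was most like Gab2 (0.943), an adaptor that binds PI3K, then Cdk6 and Add1. Runx3 went with Ahdc1 (0.953), Ski and Acvr1b, and Tbx21 with Ptpn1 (0.863), Stard3nl and H2-M3. Eomes went with Cdca7 (0.886), Dna2 and Exo1, of which Dna2 and Exo1 encode nucleases of DNA replication and repair. Zeb2 had Rnf19a (0.990), Virma and Zfp507, at a Zeb2 level near the pseudocount. Among the members, Prdm1 and Zfp683 had r = 0.65, Tbx21 and Runx3 0.69, Irf4 and Id2 -0.70, and Tbx21 and Eomes 0.20.

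Lists of known partners and target genes of the factors, written with earlier results of these data known, were counted in the same fits. Blimp-1 and Hobit are known to repress genes of naive and memory precursor cells, and 11 of 12 such genes were in the table (Il2 was not). With the block, 8 of the 11 rose and 0 fell with PI3Kdi in WT, where 1.53% of all genes rose. In FOXO1-GFP KO 5 of the 11 rose and 0 fell, where 1.82% of all genes rose. Without the block limma called 0 of the 11 in either genotype, with 8 and 5 at an unadjusted p under 0.05 (5.14% and 5.17% of all genes), and voom without the block called S1pr1 of this list in WT. The median log2 fold change of the list was 0.71 with FOXO1 and 0.50 without it, against -0.04 and -0.02 over all genes. Several of these genes are also known FOXO1 targets, and the study reported on some of them in these samples, so the counts are not independent evidence of their direction.

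Tcf7, encoding the memory factor TCF-1, was 4.71, 2.08 and 3.56 FPKM in WT and 14.94, 6.74 and 9.44 FPKM in WT+PI3Kdi, and rose by 1.56 ± 0.15 on the log2 scale (SE, limma with the block, adjusted p = 0.000175). Where FOXO1 was deleted the libraries had 1.13, 0.90 and 0.88 FPKM without and 2.04, 2.87 and 2.35 FPKM with PI3Kdi, a rise of 1.23 ± 0.15. S1pr1, a receptor for exit from lymphoid tissue, rose by 1.53 ± 0.15 in WT CTL and 0.95 ± 0.15 in those lacking FOXO1. Il7r, the IL-7 receptor, rose by 1.15 ± 0.14 and 0.97 ± 0.14. Between the genotypes Tcf7 was the 1 gene of the list called here. It was lower in FOXO1-GFP KO+PI3Kdi than in WT+PI3Kdi by a log2 of -1.99 ± 0.31 (adjusted p = 0.00905 in limma without the block). In that fit Klf2 (-1.40 ± 0.33) and S1pr1 (-1.22 ± 0.29) had an adjusted p of 0.0659, and 1 of the 11 genes had a positive difference. The study, with voom on counts, listed Tcf7, Klf2, S1pr1 and Bach2 as lower in this comparison.

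**Figure D4:**
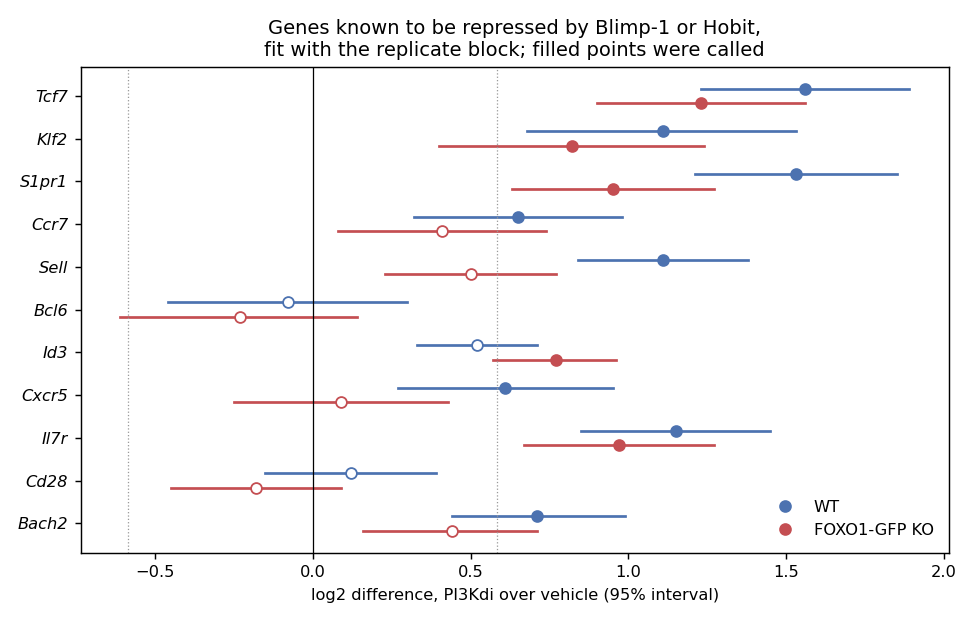
The log2 difference between PI3Kdi and vehicle (horizontal axis, with 95% intervals) for the 11 genes known to be repressed by Blimp-1 or Hobit, in WT (blue) and FOXO1-GFP KO (red), from limma with the replicate block; filled points were called and dotted lines mark a 1.5-fold difference. Points of Tcf7 lie farthest right, at 1.56 and 1.23, and Bcl6 lies at -0.08 and -0.23.

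T-bet and Eomes are known activators of 12 listed effector genes, all in the table. With the block 1 rose and 1 fell with PI3Kdi in each genotype, and they were Ccl5 and Ifng in both, where 2.57% of all genes in WT and 2.79% in FOXO1-GFP KO were called. Without the block neither was called (adjusted p = 0.187 and 0.252 for Ccl5, 0.136 and 0.651 for Ifng, in WT and FOXO1-GFP KO). Ccl5, a chemokine, was 30.92, 36.73 and 48.43 FPKM in WT and 57.97, 65.78 and 83.75 FPKM in WT+PI3Kdi, and rose by 0.84 ± 0.08 in WT CTL and 0.95 ± 0.08 where FOXO1 was deleted. Ifng was 21.08, 24.86 and 32.44 FPKM in WT and 9.73, 14.55 and 15.63 FPKM in WT+PI3Kdi, and fell by 0.97 on the log2 scale there and by 0.65 in cells lacking FOXO1. The Ifng call in FOXO1-GFP KO was lost without FOXO1-GFP KO replicate 3 or FOXO1-GFP KO+PI3Kdi replicate 3. Of the cytolytic genes, Gzmb was not called, and Prf1, encoding perforin, passed the adjusted p with the block but not the fold, with log2 fold changes of -0.47 where FOXO1 was intact (adjusted p = 0.0284) and -0.40 where it was deleted (adjusted p = 0.0463). Between the genotypes with PI3Kdi, Cxcr3, a chemokine receptor, was lower in FOXO1-GFP KO (-1.06 ± 0.10, adjusted p = 0.000831) and Fasl, a death ligand, was higher (0.63 ± 0.13, adjusted p = 0.0435), both without the block, in a comparison where 1.45% of all genes were called. The Fasl call was lost under TPM scaling and in most of the fits that left out 1 library, and with the block its adjusted p then reached 0.107. The median of the list was 0.06 in the WT response to PI3Kdi and 0.16 in that of FOXO1-GFP KO.

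Of 24 partners and other effector regulators, 0 were called with PI3Kdi in WT (limma; 3 at an unadjusted p under 0.05 without the block and 6 with it, where 5.14% and 23.7% of all genes were) and 2 rose with it in FOXO1-GFP KO with the block, where 1.82% of all genes rose. These were Id3, the counterpart of Id2 in memory cells (0.77 ± 0.09, adjusted p = 0.000704), and Batf3, a partner of IRF4 (0.64 ± 0.10, adjusted p = 0.00247). Neither was called without the block (adjusted p = 0.32 and 0.755), and Batf3 was under the fold threshold, at 0.58, without FOXO1-GFP KO replicate 3. In WT both rose by less than the fold threshold, Id3 by 0.52 and Batf3 by 0.51 on the log2 scale. The responses of the genotypes differed by 0.25 for Id3 (95% interval -0.29 to 0.79, without the block). For Batf3 they differed by 0.13 (-0.57 to 0.83). In the test of this difference with the block, 0 of the 24 regulators were called, against 0.0226% of all genes. An unadjusted p under 0.05 was found there for 2 of the 24, against 10.8% of all genes. The Id3 and Batf3 calls therefore do not show a difference between the genotypes. Id3 is also among the Blimp-1 and Hobit repressed genes. Stat4, the transducer of IL-12 signals, was lower in FOXO1-GFP KO+PI3Kdi than in WT+PI3Kdi by -0.96 ± 0.12 (adjusted p = 0.00237 without the block). It was 18.36, 16.11 and 16.66 FPKM in WT+PI3Kdi and 8.62, 7.71 and 9.91 FPKM in FOXO1-GFP KO+PI3Kdi. Of 5 genes activated by Runx3, 1 was called, Itgae, which rose with PI3Kdi in FOXO1-GFP KO with the block (0.71 ± 0.20, adjusted p = 0.0414) at 0.11 to 0.38 FPKM without and 0.26 to 0.70 FPKM with PI3Kdi, where 1.82% of all genes rose. The Itgae call was lost without the block (adjusted p = 0.933), without WT replicate 1 and without any 1 of the 6 FOXO1-GFP KO libraries (adjusted p up to 0.155), and its log2 fold change was 0.24 with a pseudocount of 1. Of the 2 genes repressed by Runx3, Cd4 rose with PI3Kdi in WT with the block (0.68 ± 0.18, adjusted p = 0.0413), at 0.44 to 0.57 FPKM without and 0.83 to 0.95 FPKM with PI3Kdi, where 1.53% of all genes rose. The Cd4 call was lost without the block (adjusted p = 1) and without any 1 of the 6 libraries of WT and WT+PI3Kdi (adjusted p up to 0.17), and its log2 fold change was 0.32 with a pseudocount of 1. The 3 CD4 T cell genes listed of 4, Cd4 among them, summed to 6.65 to 8.24 FPKM in WT and 7.36 to 7.79 FPKM in WT+PI3Kdi, and Foxp3 was not among the rows.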

How the data were processed

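RNA of sorted CTL (300 ng) was sequenced as stranded, paired mRNA libraries. Per the study's methods and the labels, the authors aligned reads with STAR 2.7.1a to GRCm38.p6, counted them per Ensembl gene, filtered low genes, scaled by TMM and divided by exon length in edgeR. The strand setting of the counting is not given in the sources used here, so Eomes and Runx3, which overlap antisense genes, may hold antisense reads, and Zeb2 likewise. The deposited values are FPKM with 2 decimals. The table held 0 columns of other samples.

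Gene lengths came from GENCODE M21 (GRCm38), which held 13276 of 13283 genes. Depth was estimated from the FPKM steps of genes up to 400 bp, and 93.7 to 97.6% of held-out values up to 800 bp then came out whole. Reads with no molecular identifiers and estimated depth give counting error only.

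limma 3.58.1 (R 4.3.3) fitted 4 group means to log2(FPKM + 0.1) of 12 libraries with a mean-variance trend. Fold changes of low genes are understated by the added 0.1. Adjusted p-values are Benjamini-Hochberg over all genes, and a call needs one under 0.05 and a fold change over 1.5. The block treated each genotype's replicate number as a random effect (consensus correlation 0.757). The labels number the replicates without saying that a pair shares a mouse or that libraries are separate animals, so p-values measure the spread between these libraries. Departures of libraries from their group's mean correlated at 0.594 to 0.838 in the 6 pairs within a genotype, and at -0.409 to 0.73 across genotypes, so the numbers were taken as pairs within a genotype. The fits were tested on simulated data with pairs within a genotype built in, which cannot check whether the real libraries are paired. Alternatives included voom on reads estimated from the depth.

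The members, lists and tests were chosen with earlier results of these data known. Named genes were the 8 members, Foxo1, the 3 most alike genes of each member other than predicted gene models, and up to 3 called genes per list and comparison. All 8 members passed the authors' filter.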

Additional observations from a re-analysis of the deposited data

Results flagged for a closer look

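Cxcr3, a listed target of T-bet, was the 1 named gene whose response to PI3Kdi differed between the genotypes by the test of the difference. It was 19.63, 19.58 and 20.58 FPKM in WT, 21.96, 20.14 and 20.13 FPKM in WT+PI3Kdi, 13.06, 13.91 and 15.72 FPKM in FOXO1-GFP KO, and 8.88, 10.19 and 10.60 FPKM in FOXO1-GFP KO+PI3Kdi. The response of FOXO1-GFP KO minus that of WT was -0.58 on the log2 scale, with an adjusted p of 0.0207 in limma with the replicate block within genotype and of 1 without it, and its size was within the 1.5-fold threshold.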

How the results depend on the processing

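The count of members called depended on the replicate block. It was 0 without a block in each of the 5 comparisons under every alternative run (pseudocounts of 1 and 0.01, a mean of at least 1 FPKM, TPM scaling, quantile normalization, voom, the groups of a comparison alone) and under a block shared by all groups. With the block within genotype it was 3 in WT with PI3Kdi and 1 in FOXO1-GFP KO with PI3Kdi, as a random effect, as fixed terms and in voom. It was 0 in the other comparisons as a random effect and in voom; fixed terms could be fitted only for the difference of the responses among them, with 0. Leaving out each library gave 0 without the block; with it, in fits added after seeing the data, the count was 1 to 3 in WT and 0 to 2 in FOXO1-GFP KO. Over all genes the block moved the calls from 13 to 342 in WT and from 6 to 370 in FOXO1-GFP KO, and from 0 to 3 for the difference of the responses. A block shared by all groups gave 99 and 42 calls with PI3Kdi, and 178 and 440 between genotypes without and with it, where the fit without a block gave 44 and 193. Over the fit without a block and its alternatives with all libraries or all those of a comparison, these 4 counts ranged from 0 to 22, 0 to 6, 0 to 58 and 94 to 193, and over the fits that left out 1 library from 1 to 10, 0 to 4, 8 to 41 and 111 to 196. The cause was not tested.

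Scaling to TPM raised the WT mean of Tbx21, as a share of the highest group, from 0.718 to 0.771 and that of Runx3 from 0.832 to 0.881. Signs of values near 0 turned. TPM scaling gave -0.00037 for Tbx21 with PI3Kdi in WT, -0.0049 for Irf4 with PI3Kdi in FOXO1-GFP KO, and -0.042 for Eomes and -0.03 for Runx3 between genotypes with PI3Kdi. Quantile normalization gave -0.013 for Eomes and -0.02 for Id2 in that last comparison. Leaving out each library spanned 0 in the following log2 differences. With PI3Kdi in WT, Tbx21 spanned -0.041 to 0.086, Eomes -0.028 to 0.23 and Zeb2 -0.2 to 0.24. With PI3Kdi in FOXO1-GFP KO, Eomes spanned -0.17 to 0.011 and Irf4 -0.13 to 0.25. Between genotypes without PI3Kdi, Tbx21 spanned -0.14 to 0.24, Prdm1 -0.015 to 0.51, Zeb2 -0.37 to 0.069, Zfp683 -0.52 to 0.067, Irf4 -0.14 to 0.34 and Runx3 -0.16 to 0.1. Between genotypes with PI3Kdi, Eomes spanned -0.064 to 0.19, Id2 -0.0059 to 0.15, Zfp683 -0.068 to 0.58 and Runx3 -0.085 to 0.27. For the difference of the responses, Id2 spanned -0.14 to 0.042, Prdm1 -0.19 to 0.34, Zeb2 -0.41 to 0.029 and Runx3 -0.049 to 0.32. Zeb2, at 3.52 to 60.1 reads, lies at the limit of the depth.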
